A study of Mus musculus with 4 samples.

Results

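Sterol synthesis and SREBP response genes were described here as a set of 8 genes chosen by symbol: *Hmgcs1*, *Sqle*, *Cyp51*, *Idi1*, *Fdps*, *Fdft1*, *Insig1* and *Sc5d*. Of these, 7 were found among the 11598 genes of the deposited table, and *Hmgcs1* was not analysed here. Ribosome profiling (Ribo-seq) sequences ribosome-protected fragments (RPFs), the stretches of mRNA left after nuclease removes what ribosomes do not cover, so the level of a gene reflects how many ribosomes sat on its mRNAs. The 4 libraries came from leptotene/zygotene spermatocytes, the cells at the start of meiotic prophase I, sorted from 12 dpp (days postpartum) mouse testes. Control libraries (n = 2) were labelled wild type and are called littermate controls in the methods, while *Eef1g*-cKO libraries (n = 2) came from males in which *Stra8*-GFPCre deletes part of the floxed *Eef1g* gene in germ cells from the spermatogonial stage onwards. *Eef1g* encodes the gamma subunit of the translation elongation factor eEF1 complex. The comparison asked whether ribosome occupancy of the sterol genes differed between the genotypes. No agent was given to either genotype according to the labels, and the labels give the libraries of a genotype as independent biological replicates without the number of mice behind each.

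Animal cells build cholesterol from acetyl-CoA through the mevalonate pathway, in which mevalonate is made, isopentenyl and farnesyl units are assembled, squalene is formed and closed into lanosterol, and lanosterol is trimmed to cholesterol. Transcription of most of these enzymes is switched on by the sterol regulatory element binding proteins (SREBPs). SREBPs are held in the endoplasmic reticulum by SCAP and the INSIG proteins while sterols are plentiful, and are released, cleaved and sent to the nucleus when sterols fall. In the testis, cholesterol is the precursor of androgens in Leydig cells, and germ cells are known to produce the pathway intermediate FF-MAS, a meiosis-activating sterol, with the enzyme encoded by *Cyp51*.

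The depth of the libraries limited every value below. Reads counted on genes numbered 2479504 and 1384282 in control against 223906 and 407979 in *Eef1g*-cKO, a mean depth 6.11 times higher in control. A single read on a gene of 1 kb was worth 0.403 and 0.722 FPKM (fragments per kilobase of gene per 1000000 reads) in control and 4.47 and 2.45 FPKM in *Eef1g*-cKO. *Eef1g* itself had 107 and 58 reads in control and 0 and 4 reads in *Eef1g*-cKO. All 10 leptotene/zygotene markers were found in every library, and their summed level was 1748 and 1452 FPKM in control against 3726 and 3231 FPKM in *Eef1g*-cKO. *Sycp3* made up most of it in *Eef1g*-cKO (2217 and 1778 FPKM), while *Stra8* of the same list was lower there (126 and 96.0 FPKM against 260 and 252 FPKM, log2 fold change -1.21, limma adjusted p = 0.0379). Spermatogonial markers (10 of 10 in the table) summed to 1384 and 1688 FPKM in control against 258 and 262 FPKM in *Eef1g*-cKO, where 4 and 1 of them were at 0. Sertoli markers (7 of 10 in the table) summed to 632 FPKM in control replicate 1 and to between 95.7 and 140 FPKM in the other libraries, and *Gata4* was at 0 in both *Eef1g*-cKO libraries. Leydig markers (3 of 8 in the table) had at most 18 reads together in any library, and none of the 5 macrophage markers was in the table. Peritubular markers summed to between 20.8 and 43.8 FPKM, spermatid markers to between 0 and 55.3 FPKM, and pachytene markers to 417 and 316 FPKM in control against 1483 and 1384 FPKM in *Eef1g*-cKO, nearly all from *Hist1h1t*. The part of these cell types in the sterol gene values was not tested, and in bulk samples fewer cells of a type and less RNA per cell cannot be told apart.

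Windows of 300 bases around the gene starts (250 before to 50 after, RefSeq, GRCm38.p6) were on hand for 4 of the 7 genes, *Cyp51*, *Idi1*, *Insig1* and *Sc5d*. The windows of 3 of them are shown because SREBPs act on this pathway through such windows together with partner factors. They were also picked because the log2 fold changes of their genes, described below, differed in sign. None of these signs was settled, since the limma interval of each of the 3 genes held both positive and negative values. Motif differences between the windows therefore cannot be set against a direction of change. Searched on both strands were the core of the sterol regulatory element (CACCCCAC), the CCAAT box bound by NF-Y (CCAAT), the E-box (CACGTG) and the GC box bound by Sp1 (GGGCGG). Matches are in capitals, a match on the opposite strand reading as its complement, and each window runs 5′ to 3′ on the strand of its gene.

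*Cyp51*, chr5:4104648-4104947, minus strand: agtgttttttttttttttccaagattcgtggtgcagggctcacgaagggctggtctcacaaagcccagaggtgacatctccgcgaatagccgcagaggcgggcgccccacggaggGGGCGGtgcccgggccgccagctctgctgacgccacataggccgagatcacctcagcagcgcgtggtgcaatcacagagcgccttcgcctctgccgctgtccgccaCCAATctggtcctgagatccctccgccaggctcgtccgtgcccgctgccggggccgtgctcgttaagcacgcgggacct

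*Idi1*, chr13:8885356-8885655, plus strand: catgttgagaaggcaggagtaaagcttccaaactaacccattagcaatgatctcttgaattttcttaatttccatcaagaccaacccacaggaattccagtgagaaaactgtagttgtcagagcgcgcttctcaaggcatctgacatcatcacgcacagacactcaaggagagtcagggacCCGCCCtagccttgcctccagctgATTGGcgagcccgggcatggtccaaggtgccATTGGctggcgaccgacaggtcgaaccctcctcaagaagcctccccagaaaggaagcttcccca

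*Insig1*, chr5:28071162-28071461, plus strand: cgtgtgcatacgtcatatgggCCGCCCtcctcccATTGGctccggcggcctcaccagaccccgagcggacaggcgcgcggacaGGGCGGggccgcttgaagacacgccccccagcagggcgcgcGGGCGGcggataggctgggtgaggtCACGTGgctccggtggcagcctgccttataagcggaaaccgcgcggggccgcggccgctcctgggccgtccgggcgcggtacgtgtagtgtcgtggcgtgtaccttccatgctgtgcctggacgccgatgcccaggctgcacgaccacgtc

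No pair of these motifs overlapped in the windows shown. CCAAT and GC boxes were found in all 4 windows, against 37.41% and 35.66% of 32851 mouse windows of the same length. *Idi1* had 2 CCAAT boxes, at 45 and 14 bases before the start, whereas *Cyp51*, *Insig1* and *Sc5d* had 1 each. E-boxes were found in *Insig1* and *Sc5d* at 101 and 98 bases before the start, and 7.15% of all windows held one. The sterol element core was matched in none of the 4 windows and in 2.867% of all windows, which says only that these exact letters were not in these stretches. Among other sterol synthesis genes with a window, the core was found in *Acat2*, at 181 bases before the start. These matches are a description of the sequence and not of binding.

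**Figure D1:**
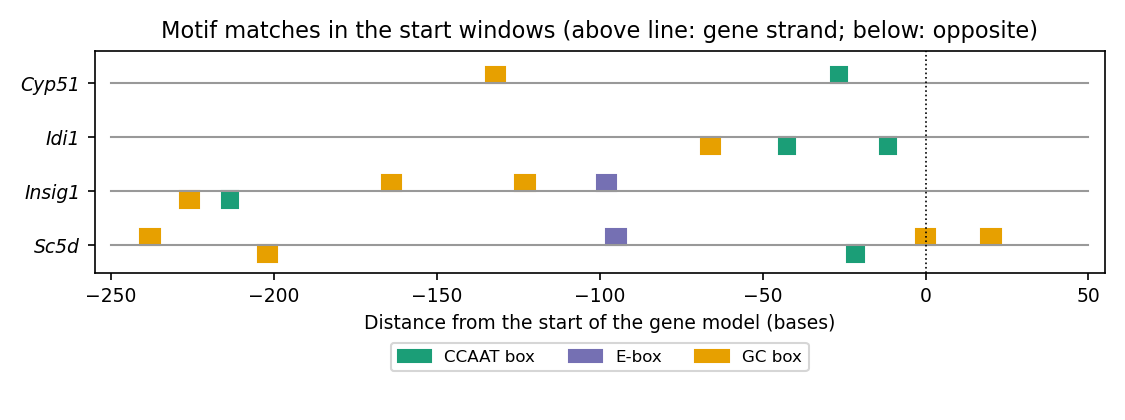
Positions of motif matches in the windows of *Cyp51*, *Idi1*, *Insig1* and *Sc5d*, in bases from the start of the gene model (dotted line at 0), with boxes above the line on the strand of the gene and boxes below it on the opposite strand. Each gene has at least 1 CCAAT box and 1 GC box, and the E-boxes of *Insig1* and *Sc5d* lie at 101 and 98 bases before the start.

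In control spermatocytes the set spanned a wide range of levels. *Fdft1* was highest at 26.7 ± 4.04 FPKM (mean ± SD, n = 2), and *Idi1* was lowest at 0.911 ± 0.493 FPKM. Between them lay *Sqle* (17.2 ± 9.15 FPKM), *Cyp51* (16.9 ± 1.41 FPKM), *Fdps* (12.8 ± 3.39 FPKM), *Insig1* (12.6 ± 8.38 FPKM) and *Sc5d* (3.79 ± 0.543 FPKM). Neighbours in this order overlapped between libraries for *Sqle* with *Cyp51* and for *Fdps* with *Insig1*. In *Eef1g*-cKO the order was *Sqle* (22.7 ± 4.50 FPKM), *Fdft1* (13.0 ± 11.8 FPKM), *Cyp51* (11.8 ± 0.779 FPKM), *Insig1* (6.53 ± 2.69 FPKM), *Sc5d* (5.06 ± 4.08 FPKM), *Fdps* (4.59 ± 6.48 FPKM) and *Idi1* (2.06 ± 0.712 FPKM). There only *Cyp51* and *Insig1* were neighbours with libraries that did not overlap. FPKM divides by the length given for the whole gene, of which the longest coding sequence is a varying part. It is 1509 of 4353 bases for *Cyp51* and 1059 of 1461 bases for *Fdps*. The order between genes therefore depends in part on that length, and was not rescaled to coding sequence.

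**Figure D2:**
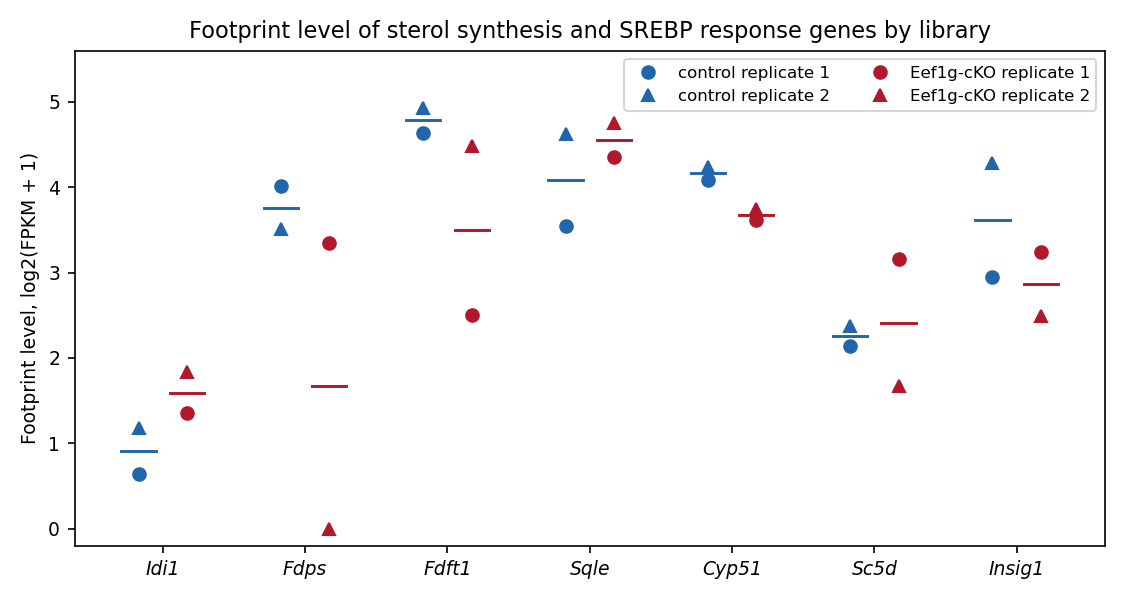
Footprint level of each gene in each library as log2(FPKM + 1), with control in blue and *Eef1g*-cKO in red, circles for replicate 1, triangles for replicate 2 and a short line at the mean of the 2 libraries. *Fdps* and *Fdft1* spread widely between the *Eef1g*-cKO libraries (9.17 and 0 FPKM, 4.68 and 21.4 FPKM), while *Cyp51* lies lower in both *Eef1g*-cKO libraries.

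None of the 7 genes differed between genotypes past the thresholds, and the genes did not share a direction. *Idi1*, *Sqle* and *Sc5d* had positive log2 fold changes (*Eef1g*-cKO over control, on the log2(FPKM + 1) scale unless another test is named), between 0.16 and 0.68. *Cyp51*, *Insig1*, *Fdft1* and *Fdps* had negative ones, between -0.48 and -2.09. This scale shrinks changes of low genes, but it did not give the smaller size for every gene. For *Idi1* it gave 0.68, against 1.34 by edgeR without a filter on low counts. For *Fdft1* it gave -1.29, against -0.78 by edgeR. The median of the 7 was -0.48, beside -0.23 over all 10475 genes tested. At the thresholds used (limma, Benjamini-Hochberg adjusted p under 0.05, log2 fold change larger than 1 in either direction), 0 of the 7 were called, where 2.87% of all tested genes were called higher and 4.97% lower (301 and 521 genes, or 521 and 383 with each library centred on its median). With unadjusted p, 0 of the 7 were called as well, where 7.32% of all genes were called higher and 16.3% lower. With edgeR on reads recovered from the table, 0 of the 5 genes that passed its filter on low counts were called, where 8.75% of 8056 genes were called higher and 11.2% lower, and DESeq2 called 0 of the 6 to which it gave an adjusted p (all but *Idi1*), where 5.94% of 8450 genes were called higher and 5.34% lower. *Idi1* lay higher in both *Eef1g*-cKO libraries than in both control libraries, a pattern seen in 24.6% of all genes. *Cyp51*, *Fdps* and *Fdft1* lay lower in both, as did 37.7% of all genes, so 3 of 7 was near the background. With 2 libraries against 2, an exact two-sided permutation test on one gene cannot go below p = 0.333.

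*Idi1* and *Fdps* act on the isoprene units, and had the fewest *Eef1g*-cKO reads of the set (4 and 3 over both libraries). *Idi1* (chr13:8885606-8892396) encodes the isomerase that interconverts isopentenyl and dimethylallyl diphosphate. It had 4 and 5 reads in control and 1 and 3 reads in *Eef1g*-cKO, which is 0.563 and 1.26 FPKM against 1.56 and 2.56 FPKM. Both *Eef1g*-cKO values were the higher ones, but they rest on 4 reads in all, and a single read was worth 1.56 FPKM in replicate 1. The log2 fold change was 0.68 (SE 0.53, 95% interval -0.63 to 2.00, limma adjusted p = 0.419). Pooled over libraries, *Eef1g*-cKO over control was 2.72, with an exact counting interval of 0.612 to 9.74 that covers counting error only. In a single random draw that thinned the libraries to one read total the log2 fold change was -0.34. Its direction was not settled at this depth.

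*Fdps* (chr3:89093588-89101967) encodes farnesyl diphosphate synthase, whose product also feeds protein prenylation, dolichol and ubiquinone. Its level was 15.2 and 10.4 FPKM in control and 9.17 and 0 FPKM in *Eef1g*-cKO, from 55, 21, 3 and 0 reads. Both *Eef1g*-cKO values lay below control, but they differed from each other by more than replicate 1 differed from control replicate 2. A count of 0 in *Eef1g*-cKO replicate 2 allows up to 3 reads, or 5.03 FPKM for this gene. The log2 fold change of -2.09 (SE 1.07, 95% interval -4.72 to 0.54) had a limma adjusted p of 0.242. The pooled ratio of *Eef1g*-cKO over control was 0.241, with a counting interval of 0.0487 to 0.733. This gene turned on 1 library: the log2 fold change was -3.76 when *Eef1g*-cKO replicate 1 was left out, and -0.42 when replicate 2 was.

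*Fdft1* and *Sqle* form and oxidise squalene. *Fdft1* (chr14:63145150-63181687) encodes squalene synthase, the step that commits farnesyl units to sterols. Its level was 23.8 and 29.5 FPKM in control and 4.68 and 21.4 FPKM in *Eef1g*-cKO, from 169, 117, 3 and 25 reads. *Eef1g*-cKO replicate 2 lay just below the control libraries and replicate 1 far below them. The pooled ratio of *Eef1g*-cKO over control was 0.599, with a counting interval of 0.391 to 0.884. Tested on reads, the log2 fold change was -0.78 by edgeR and -0.85 by DESeq2. By limma the log2 fold change was -1.29 (SE 0.65, 95% interval -2.89 to 0.31, limma adjusted p = 0.238). This value too was set by 1 library, being -0.30 when *Eef1g*-cKO replicate 1 was left out and -2.28 when replicate 2 was. *Fdps* and *Fdft1* thus had their low values in different *Eef1g*-cKO libraries.

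*Sqle* (chr15:59315092-59331193) encodes squalene epoxidase, a rate-limiting step of the sterol branch. Its level was 10.7 and 23.7 FPKM in control and 19.5 and 25.9 FPKM in *Eef1g*-cKO, from 73, 90, 12 and 29 reads. The genotypes overlapped, since control replicate 2 lay between the *Eef1g*-cKO libraries. On the log2 scale the difference was 0.47 (SE 0.43, 95% interval -0.59 to 1.52, limma adjusted p = 0.492), and it was -0.071 without control replicate 1. *Sqle* was the gene of the set with the most reads in *Eef1g*-cKO (41 over both libraries), and its pooled ratio was 1.54 with a counting interval of 1.06 to 2.18.

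*Cyp51* and *Sc5d* act after lanosterol. *Cyp51* (chr5:4080674-4104697) encodes lanosterol demethylase, whose product is FF-MAS. Its level was 15.9 and 17.9 FPKM in control and 11.3 and 12.4 FPKM in *Eef1g*-cKO, from 172, 108, 11 and 22 reads. The libraries of a genotype lay close together and the genotypes did not overlap, making this the tightest gene of the set. The log2 fold change was -0.48 (SE 0.30, 95% interval -1.22 to 0.26, limma adjusted p = 0.320), and leaving out any one library left it between -0.40 and -0.56. The pooled ratio was 0.721, with a counting interval of 0.486 to 1.04.

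*Sc5d* (chr9:42251592-42264300) encodes the desaturase that makes 7-dehydrocholesterol late in the pathway. Its level was 3.41 and 4.18 FPKM in control and 7.94 and 2.18 FPKM in *Eef1g*-cKO, from 19, 13, 4 and 2 reads. The *Eef1g*-cKO libraries fell on either side of control. Its log2 fold change was 0.16 (SE 0.62, 95% interval -1.36 to 1.68, limma adjusted p = 0.878), and without *Eef1g*-cKO replicate 1 it was -0.59.

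*Insig1* (chr5:28071412-28078662) is the regulator of the set: it retains SCAP and SREBP in the endoplasmic reticulum and is itself a classical SREBP target. Its level was 6.70 and 18.6 FPKM in control and 8.43 and 4.63 FPKM in *Eef1g*-cKO, from 44, 68, 5 and 5 reads. Control replicate 2 stood above the other libraries, which overlapped. Between genotypes the log2 fold change was -0.75 (SE 0.57, 95% interval -2.16 to 0.65, limma adjusted p = 0.405), and without control replicate 2 it was -0.08.

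Summed over the 7 genes, reads per 1000000 counted reads were 216 and 305 in control against 174 and 211 in *Eef1g*-cKO. Control replicate 2 carried the highest sum, and the other libraries lay within a narrower band. The means were 260 ± 62.7 and 192 ± 25.9 (SD, n = 2), a ratio of 0.739. *Fdft1* and *Cyp51* made up most of this difference: without them the sums were 78.6 and 142 in control against 112 and 95.6 in *Eef1g*-cKO, and the ratio of means was 0.938.

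The other sterol synthesis genes, listed from textbook pathways, contained genes that did pass the test. Of 11 in the table, 3 fell by limma adjusted p (4.97% of all genes) and 0 rose, all with few *Eef1g*-cKO reads. By unadjusted p, 6 of 11 passed the threshold with a lower level (16.3% of all genes) and 0 with a higher one, and by edgeR adjusted p 5 of 10 were lower (11.2% of all genes) and 0 higher. The median log2 fold change of the 11 was -1.19, and 8 of 11 lay lower in both *Eef1g*-cKO libraries (37.7% of all genes). In 4 of 11 genes neither *Eef1g*-cKO library had more than 3 reads, as in 2701 of the 10475 tested genes.

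*Acat2*, which encodes the acetoacetyl-CoA thiolase that feeds the pathway, had 17.1 and 17.7 FPKM in control and 0 and 2.36 FPKM in *Eef1g*-cKO. It fell by 3.33 on the log2 scale (SE 0.66, limma adjusted p = 0.0436), from 88 and 51 reads to 0 and 2, a pooled ratio of 0.0880 with a counting interval of 0.0106 to 0.324. *Mvd*, mevalonate diphosphate decarboxylase, had 24.4 and 35.3 FPKM in control and 0 and 2.63 FPKM in *Eef1g*-cKO. It fell by 4.00 on the log2 scale (SE 0.68, limma adjusted p = 0.0354), a pooled ratio of 0.0599 with a counting interval of 0.00721 to 0.219. *Mvd* acts just before *Idi1*, and its reads were 113, 91, 0 and 2. *Dhcr7*, the reductase of the last step to cholesterol, had 22.6 and 32.3 FPKM in control and 4.76 and 6.09 FPKM in *Eef1g*-cKO. It fell by 2.13 on the log2 scale (SE 0.35, limma adjusted p = 0.0350), and its libraries agreed within each genotype. The genes past the unadjusted threshold besides these were *Pmvk*, *Lss* and *Ebp*, named after their values were seen. All 3 adjusted calls were lost when either control library was left out, as was every other call by limma adjusted p, the fatty acid genes below included. The same held with libraries thinned to one read total and with a prior variance without a trend, where 0 of all genes were called by limma adjusted p. The call of *Acat2* was also lost without a filter on low genes (limma adjusted p = 0.0562). With a pseudocount of 0.1 FPKM *Acat2*, *Mvd* and *Dhcr7* all lost theirs. Over all genes that setting called 29 higher and 47 lower by limma adjusted p, against 301 and 521 as reported.

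**Figure D3:**
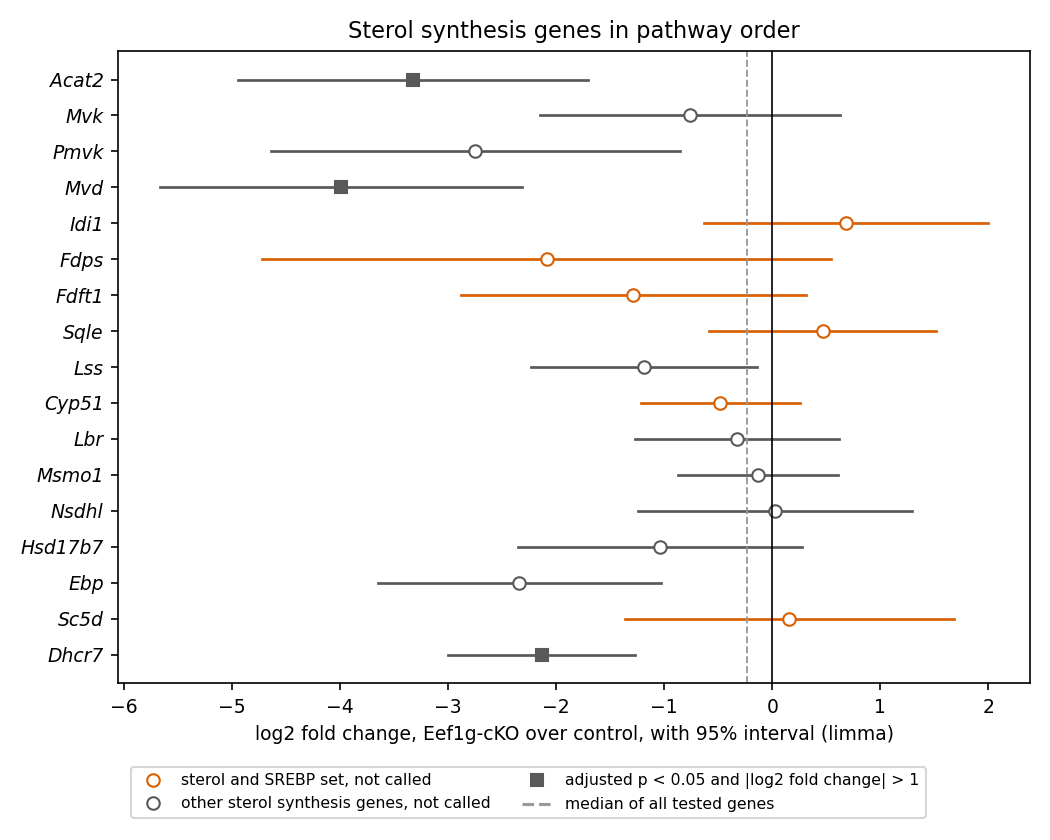
Log2 fold change (*Eef1g*-cKO over control, limma on log2(FPKM + 1)) with its 95% interval for 17 sterol synthesis genes from the top to the end of the pathway. Filled squares passed adjusted p under 0.05 with a log2 fold change above 1 in size, open circles did not, orange marks the described genes, and the dashed line is the median of all tested genes (-0.23). The 3 squares are *Acat2*, *Mvd* and *Dhcr7*, and the intervals of all 6 orange genes cross 0.

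The SREBP machinery gave no call by limma adjusted p. *Srebf2*, which encodes the SREBP that drives sterol genes, had 22.2 and 28.6 FPKM in control and 11.7 and 9.65 FPKM in *Eef1g*-cKO. Its libraries did not overlap, and its log2 fold change of -1.17 (SE 0.31) had a limma adjusted p of 0.0692 and an edgeR adjusted p of 0.0123. *Scap*, the escort of SREBP, had 20.3 and 22.6 FPKM in control and 28.1 and 23.4 FPKM in *Eef1g*-cKO, with a log2 fold change of 0.25 (limma adjusted p = 0.549). *Insig2*, the partner of *Insig1*, had 6.97 and 7.34 FPKM in control and 0 and 5.81 FPKM in *Eef1g*-cKO, so its log2 fold change of -1.64 (limma adjusted p = 0.276) rested on replicate 1. Of the 6 machinery genes besides *Insig1*, 4 lay lower (37.7% of all genes) and 2 higher (24.6%) in both *Eef1g*-cKO libraries. By unadjusted p *Srebf2* passed with a lower level (16.3% of all genes). *Mbtps2*, named after its values were seen, passed with a higher one (7.32%).

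Of 11 cholesterol uptake and transport genes 0 were called by limma adjusted p. By unadjusted p, 4 passed the threshold with a lower level (16.3% of all genes) and 0 with a higher one (7.32%). These were *Scarb1*, *Npc2*, *Stard4* and *Abca1*, named after their values were seen. The median log2 fold change of the 11 was -0.85, and 7 lay lower in both *Eef1g*-cKO libraries (37.7% of all genes).

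Among 6 genes of sterol sensing and sterol-regulated protein degradation, 0 were called by limma adjusted p. By unadjusted p, *March6* (the file's name for *Marchf6*) passed with a higher level (7.32% of all genes) and 0 with a lower one (16.3%). By edgeR adjusted p, *Erlin2* and *March6* were higher (8.75% of all genes) and 0 were lower (11.2%). These genes were named after their values were seen. Of the 6 genes 3 lay higher in both *Eef1g*-cKO libraries (24.6% of all genes), and the median log2 fold change was 0.69.

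Fatty acid targets of the SREBPs held 3 of 9 genes that fell by limma adjusted p (4.97% of all genes) and 0 that rose (2.87%). *Acly*, which supplies acetyl-CoA to both fatty acid and sterol synthesis, had 94.1 and 117 FPKM in control and 31.3 and 31.0 FPKM in *Eef1g*-cKO. It fell by 1.72 on the log2 scale (SE 0.22, limma adjusted p = 0.0283). *Fasn*, fatty acid synthase, had 50.2 and 52.7 FPKM in control and 6.29 and 7.89 FPKM in *Eef1g*-cKO, and fell by 2.70 on the log2 scale (SE 0.28, limma adjusted p = 0.0216). *Fads2*, a fatty acid desaturase, had 59.9 and 49.3 FPKM in control and 23.7 and 14.6 FPKM in *Eef1g*-cKO, and fell by 1.50 on the log2 scale (SE 0.31, limma adjusted p = 0.0475). The call of *Fads2* was lost without a filter on low genes (limma adjusted p = 0.0562), with libraries centred on their medians (limma adjusted p = 0.0564) and by DESeq2 (adjusted p = 0.0638). With a pseudocount of 0.1 FPKM, *Acly* (limma adjusted p = 0.0537) and *Fads2* (limma adjusted p = 0.0669) lost their calls. *Fasn* kept its call there (limma adjusted p = 0.04997). *Acly* and *Fasn* were read far more deeply than the described genes (1033 and 715, 1238 and 725 control reads), and their pooled ratios were 0.304 (counting interval 0.243 to 0.378) and 0.143 (0.105 to 0.192). Of 10 genes of the isoprenoid branch, which draws on the product of *Fdps*, 0 were called by either limma threshold, and the median log2 fold change was 0.26.

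**Figure D4:**
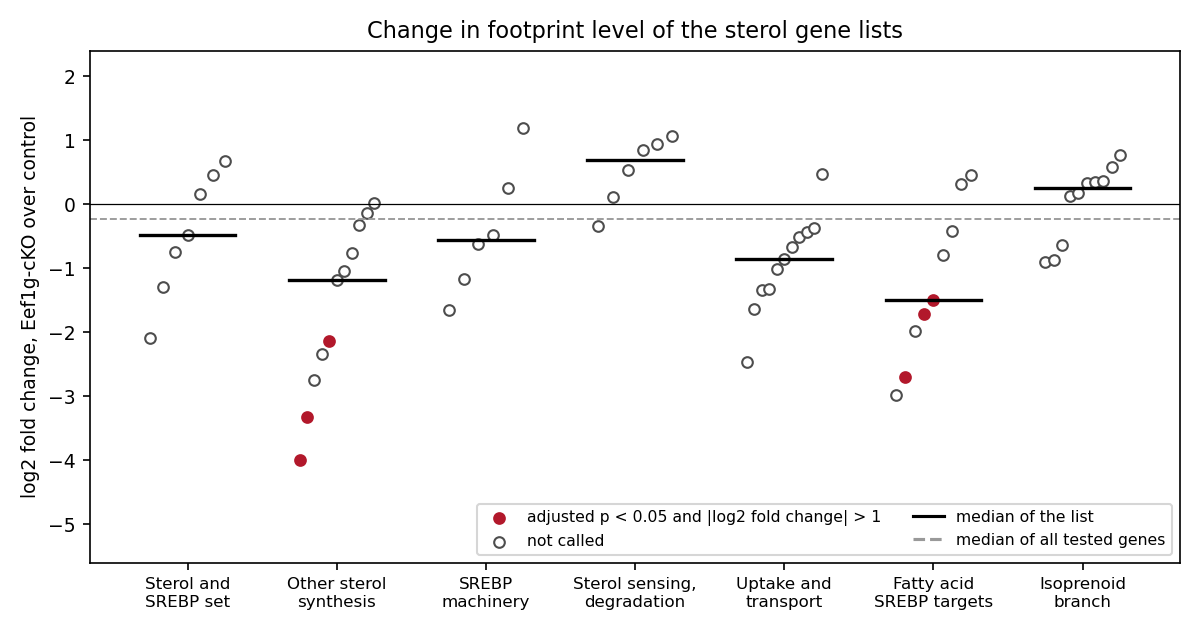
Log2 fold change (*Eef1g*-cKO over control) of each gene in 7 lists, with the list median as a black line, the median of all tested genes as a dashed line and red points for genes called by limma adjusted p. The described set spreads on both sides of 0 with a median of -0.48 and holds no red point, while the fatty acid targets have a median of -1.50 and 3 red points.

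Base composition varied among the genes. The share of codons of the longest coding sequence with G or C at the third position (GC3) was 42.8% for *Idi1*, 47.1% for *Cyp51*, 50% for *Sqle* and 53.8% for *Sc5d*. It was 66.0% for *Insig1*, 66.3% for *Fdft1* and 68.0% for *Fdps*, the 3 genes with the most negative log2 fold changes. Across the 17 sterol synthesis genes, Pearson's r between GC3 and log2 fold change was -0.66 and Spearman's rho -0.72, beside -0.28 and -0.30 across 10127 tested genes with a coding sequence. These are descriptions across genes that share the same 4 libraries and are not independent replicates. In a setting chosen after seeing the data, a GC3 trend was removed from each library. Because GC3 went with log2 fold change across all tested genes, this can also remove a difference between genotypes, which was not tested. With the trend removed, the log2 fold change was -0.23 for *Insig1*, -0.75 for *Fdft1* and -1.51 for *Fdps*. For the others it was -0.51 (*Cyp51*), 0.50 (*Sqle*), 0.30 (*Sc5d*) and 0.56 (*Idi1*). This setting also moved the median of all tested genes from -0.23 to 0.04. *Acat2*, *Mvd* and *Dhcr7* were still called by limma adjusted p. In the same setting *Fads2* lost its call, at -0.79 (limma adjusted p = 0.161), and *Srebf2* was at -0.57 (limma adjusted p = 0.258).

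**Figure D5:**
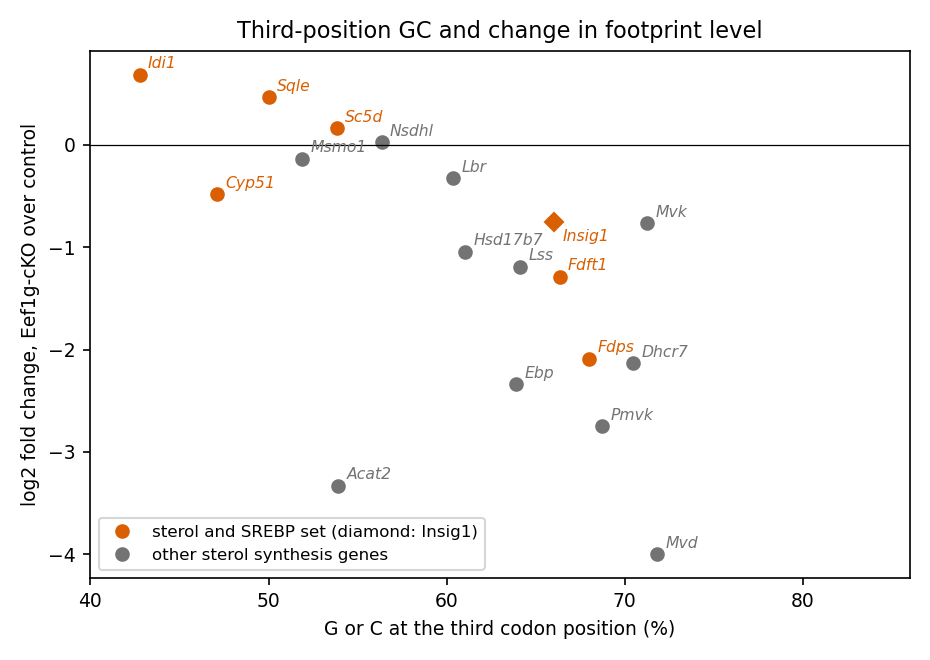
GC3 (% of codons) against log2 fold change (*Eef1g*-cKO over control) for the 17 sterol synthesis genes as circles and *Insig1* as a diamond, with the described set in orange. *Idi1*, *Sqle* and *Sc5d* lie above 0 and *Cyp51* below it (-0.48) at 42.8% to 53.8%, and *Fdps*, *Fdft1* and *Insig1* lie lower at 66.0% to 68.0%.

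The profile of the set over libraries, taken as the median of the genes' centred log2(FPKM + 1) values, was -0.20 and 0.32 in control against 0.04 and -0.18 in *Eef1g*-cKO. Control replicate 2 was thus the high library, and the genotypes were not separated. The 5 genes nearest to this profile among 7075 with a mean of at least 5 FPKM, by Euclidean distance over the 4 libraries, were *Bcs1l* (distance 0.0374), *Rps9* (0.0524), *Ctsd* (0.0620), *Irf3* (0.0660) and *Bzw1* (0.0813). Their log2 fold changes lay between -0.15 and -0.11, beside a median of -0.48 for the set. The genes of the set went in both directions, so this profile need not match any single one of them.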

How the data were processed

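Ribo-seq RPFs of 26 to 34 nt were measured in 4 libraries, 2 per genotype, grouped by their titles. The authors deposited FPKM values per gene and normalized counts, a signal made by dividing read counts by a size factor per library. These signal values were 100% whole multiples of one step in each library (tolerance 0.001), which gave back the reads. Trimming, filtering and alignment are described in the methods, and the submitters' notes name cutadapt, Bowtie, STAR, mm10 and hg38 without roles. The counter and annotation are not given in the sources used here. The 6 columns of the authors' own comparison (fold changes and p-values among them) were not used.

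Log2(FPKM + 1) values of 10475 genes whose mean reached 1 FPKM were tested with limma 3.58.1 (R 4.3.3, trended prior, Benjamini-Hochberg over all tested genes). Alternatives used edgeR 4.0.16 and DESeq2 1.42.0 on the recovered reads, other pseudocounts, filters and scalings, and each library left out. All tests were checked on simulated data. P-values measure the spread between 2 libraries per genotype, moderated by the spread of other genes. A fit without 1 library takes no spread from the genotype left with 1. Counting intervals are exact at 95%, for counting error only. The study's matched RNA-seq was not used here, so changes in mRNA and in translation cannot be told apart. The members, the lists and the tests were chosen with earlier results of these data known. Named were the members, *Srebf2*, *Scap*, *Insig2*, *Eef1g*, listed genes called by adjusted p, and the 5 genes nearest in profile. Genes in small counts outside this rule were named after their values were seen. Some genes of these pathways are not reported here and are left out of the lists' counts. Coordinates are RefSeq gene spans in GRCm38.p6. GC3 was computed from the longest GENCODE coding sequence for 11210 genes.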

Additional observations from a re-analysis of the deposited data

How the results depend on the processing

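No described gene was called by adjusted p in any setting that kept all 4 libraries. By unadjusted p 0 were called in those settings too, except with a replicate block. Fits without 1 library leave 1 library in a genotype, and their log2 fold changes are given for the described genes. Deviations of same-numbered libraries from their genotype means had a correlation of -0.01 over 10475 genes. With a median of 5 and 8 reads per gene in the *Eef1g*-cKO libraries, counting error can hide a shared deviation. This value therefore cannot show whether replicate numbers pair the libraries. With a replicate block, 2 genes passed by unadjusted p, *Fdft1* and *Fdps*, and 4 other sterol synthesis genes were lower by adjusted p. Over all 10475 genes, this block gave 772 higher and 1825 lower by unadjusted p (767 and 1705 as reported). By adjusted p it gave 424 higher and 822 lower (301 and 521 as reported). Signs reversed for *Idi1* (-0.34) and *Sc5d* (-0.61) in the single random draw that thinned libraries to one read total. They also reversed for *Sc5d* without *Eef1g*-cKO replicate 1 (-0.59, with single libraries left out up to 0.91). The same was seen for *Sqle* without control replicate 1 (-0.071, otherwise up to 1.00). *Idi1* and *Sc5d* did not pass the filter of edgeR or of a mean of at least 5 FPKM. The median log2 fold change of the set stayed below 0 throughout, between -0.56 and -0.08 when single libraries were left out, and the ratio of summed reads per 1000000 lay between 0.631 and 0.890. Of the other sterol synthesis genes, 3 were lower by adjusted p as reported, against 0 with a pseudocount of 0.1 FPKM, with thinning and with an untrended prior, and 5 by edgeR. Leaving out single libraries gave between 0 and 6, and between 2 and 7 by unadjusted p. Over all genes, adjusted calls were 301 higher and 521 lower, 521 and 383 with libraries centred on their medians, 607 and 328 with the GC3 trend removed, and 0 with thinning or an untrended prior (728 and 1287, 793 and 1811 by unadjusted p). Centring moved the median of all genes from -0.23 to -0.02. Depth limits the described genes, of which 4 of 7 had at most 10 reads over both *Eef1g*-cKO libraries.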
